A study of Homo sapiens with 12 samples.

Results

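MHC class II genes and the invariant chain were followed as a set of 10 genes among the 57820 gene identifiers counted in AsPC-1, a human pancreatic ductal adenocarcinoma cell line. The set holds the chains HLA-DRA, HLA-DRB1, HLA-DPA1 and HLA-DPB1, the invariant chain CD74, the peptide editors HLA-DMA and HLA-DMB, the protease CTSS, and the regulators CIITA and RFX5, each matched by its Ensembl identifier. The genes were chosen by their read counts and CPM (counts relative to the size of the library), with the levels in the 4 groups, both BACH1 comparisons and the gap between the controls in view, in particular the low CD74 and HLA-DRA of the knockout. Their values are therefore given as a description, with standard errors and no p-value.

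The study asked which genes BACH1, a transcription repressor that binds heme and small MAF partners, acts on in pancreatic cancer cells. In the siRNA experiment, siBACH1 cells received a BACH1 siRNA duplex with a lipid reagent, and RNA was taken 24 h later from them and from the siCont control. In the knockout experiment, sgBACH1 cells carried the lentiCRISPR v2 vector with a guide against BACH1, were selected in 10 µg/ml puromycin, and were set against the sgCont control. All 4 groups, of 3 libraries each, share the parental line. The siCont duplex and the control guide are not specified in the sources used here, nor is it stated that replicates were separate cultures or that the knockout cells were a single clone, so the spread between libraries may be technical.

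Class II molecules are pairs of an alpha and a beta chain that carry peptides from the endosomal route to the cell surface, where CD4+ T cells read them. CD74 occupies the groove of newly made pairs and guides them to endosomes, cathepsin S trims it, and the HLA-DM pair exchanges its last fragment for antigen. Constitutive expression is typical of B cells, dendritic cells and macrophages. In epithelial cells the genes are usually silent until interferon gamma induces CIITA, a coactivator without DNA binding of its own, which docks on the RFX complex (with RFX5), CREB and NF-Y at the X and Y boxes of the promoters.

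Promoter windows were read for fixed letters taken from those boxes. RefSeq (GRCh38.p14) had an entry for 7 of the 10 genes, and the 150 bases before the start were searched on both strands for the letters ACNGATG (the core of the X box), ATTGG (the Y box, bound by NF-Y) and TGANTCAGC (the element shared by BACH1 and NRF2). The letters were chosen after the windows had been seen. The 4 windows printed are those of CD74 and of the 3 genes with matches to both the X and the Y box letters, all on the minus strand and written from 5′ to 3′ along the gene, with matched letters in capitals: CD74 at chr5:150412911-150413060, HLA-DRB1 at chr6:32589849-32589998, HLA-DMA at chr6:32953098-32953247 and HLA-DMB at chr6:32941029-32941178.
CD74: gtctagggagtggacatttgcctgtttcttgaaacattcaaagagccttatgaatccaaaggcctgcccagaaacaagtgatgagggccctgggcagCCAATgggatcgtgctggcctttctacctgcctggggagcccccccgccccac
HLA-DRB1: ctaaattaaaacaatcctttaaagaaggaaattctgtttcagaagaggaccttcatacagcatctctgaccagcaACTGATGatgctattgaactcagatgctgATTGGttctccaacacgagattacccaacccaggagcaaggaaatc
HLA-DMA: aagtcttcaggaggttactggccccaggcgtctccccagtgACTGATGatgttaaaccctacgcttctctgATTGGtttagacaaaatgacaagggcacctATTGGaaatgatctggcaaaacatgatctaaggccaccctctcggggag
HLA-DMB: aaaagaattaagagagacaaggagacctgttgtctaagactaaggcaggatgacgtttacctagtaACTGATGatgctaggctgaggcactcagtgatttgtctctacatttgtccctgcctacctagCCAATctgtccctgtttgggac
HLA-DRB1, HLA-DMA and HLA-DMB each held the X box letters, beginning 75, 109 and 84 bases before the start. Y box letters lay downstream of them, in HLA-DMB on the opposite strand only. CD74 held a Y box match 53 bases before its start and no match to the X box letters. Over all 35116 promoters of the table, 3.61% of windows of this length held the X box letters, 23.5% the Y box letters and 0.837% both. The BACH1 and NRF2 letters were in 0.729% of all windows and in none of those of the 7 genes. HLA-DPB1 held 2 Y box matches, RFX5 held 1 at 1 of its 3 starts, and HLA-DPA1 held none at either start. A match describes letters and is not evidence that a factor binds. A missing match does not show that a box is absent, since only these exact letters were searched.

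Depth ranged from 13099706 to 21478886 counts per library. CPM were scaled by TMM over the 12 libraries together, and log2 fold changes are edgeR fits with their standard errors. BACH1 was at 196, 289 and 195 CPM in siCont and at 24.7, 27.5 and 24.6 in siBACH1. In the knockout it was at 270, 295 and 279 CPM in sgCont and at 220, 199 and 186 in sgBACH1, and a transcript level does not show whether an edited gene still makes protein. The second siCont library stood apart from the other two by the chi-square statistic per degree of freedom between replicates (30.5 and 35.8, against 8.89 for the other pair). The ductal markers KRT7, KRT8, KRT18, KRT19, EPCAM and others of a list of 12 summed to between 12700 and 22500 CPM in every library. Defining markers of the stated cell type were thus present. In the knockout 5 of 11 tested rose and 5 fell, against 11.3% higher and 12.3% lower of all genes tested. Genes of blood and antigen-presenting cells, without LYZ and CD14, summed to between 0.216 and 2.33 CPM, and of the 17 on that list 7 had 0 counts over sgCont and 5 over sgBACH1. LYZ, lysozyme, which some epithelia also secrete, rose by 3.62 ± 0.10 in the knockout (edgeR adjusted p = 1.19e-18), opposite to CD74, and the part of such a shift in the class II levels was not tested. CD14 was at 1.41 ± 0.344 CPM in sgCont and at 3.44 ± 1.00 in sgBACH1 (SD, n = 3), groups that did not overlap, with a change of 1.29 ± 0.49 that did not pass (adjusted p = 0.0578). With siRNA CD14 fell by 1.49 on the log2 scale (adjusted p = 0.0122), and the call was lost in 2 of 6 fits with a library left out, at an adjusted p of up to 0.0562. Fibroblast genes without LUM summed to between 0.863 and 3.25 CPM. LUM, lumican, was at 296 ± 5.14 CPM in siCont and 348 ± 10.8 in siBACH1 (SD, n = 3). It was at 114, 137 and 121 CPM in the sgCont libraries and at 50.7, 51.3 and 45.2 in those of sgBACH1, and fell by 1.34 on the log2 scale in the knockout (adjusted p = 2.46e-10), where CD74 was also lower. Their part in the class II levels was not tested either.

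CD74 was abundant in 1 group of 4. It was at 11.3, 13.1 and 10.7 CPM in the sgCont libraries (11.7 ± 1.22, SD, n = 3), on 210, 185 and 180 counts. The sgBACH1 libraries had 0 counts each, at a depth where 3 counts over the group would be 0.0566 CPM. In the siRNA experiment CD74 was at 1.40, 0 and 0.467 CPM in siCont and at 0.605, 1.60 and 0.412 in siBACH1, and these groups overlapped. The knockout was at least 205-fold lower than sgCont against a floor of 3 counts over the group, and the bound lay between 195 and 214 with any 1 sgCont library left out. Floors and counting intervals cover counting error only. The siRNA response was 0.46 ± 0.87 on the log2 scale and took values from -0.33 to 1.72 as single libraries were left out.

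CD74 was also higher in sgCont than in the other control, siCont. This comparison shares the sgCont libraries with the knockout comparison, so the 2 are set side by side only. The gap was 4.20 ± 0.66 on the log2 scale, and the pooled counts of 575 and 28 gave a ratio of 18.3 with a 95% counting interval of 12.6 to 27.8. Without the first siCont library, which held most of those 28 counts, the fitted gap was 5.46. Between the 2 controls the vector, the selection, the transfection and the time in culture all differ, and their parts cannot be told apart. The sgBACH1 libraries also lay below siCont in pooled counts (0 against 28), at least 11.2-fold lower. The first siCont library held 20 of the 28 counts, and without it the bound was 4.73-fold; the second siCont library had 0 counts as well.

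**Figure D1:**
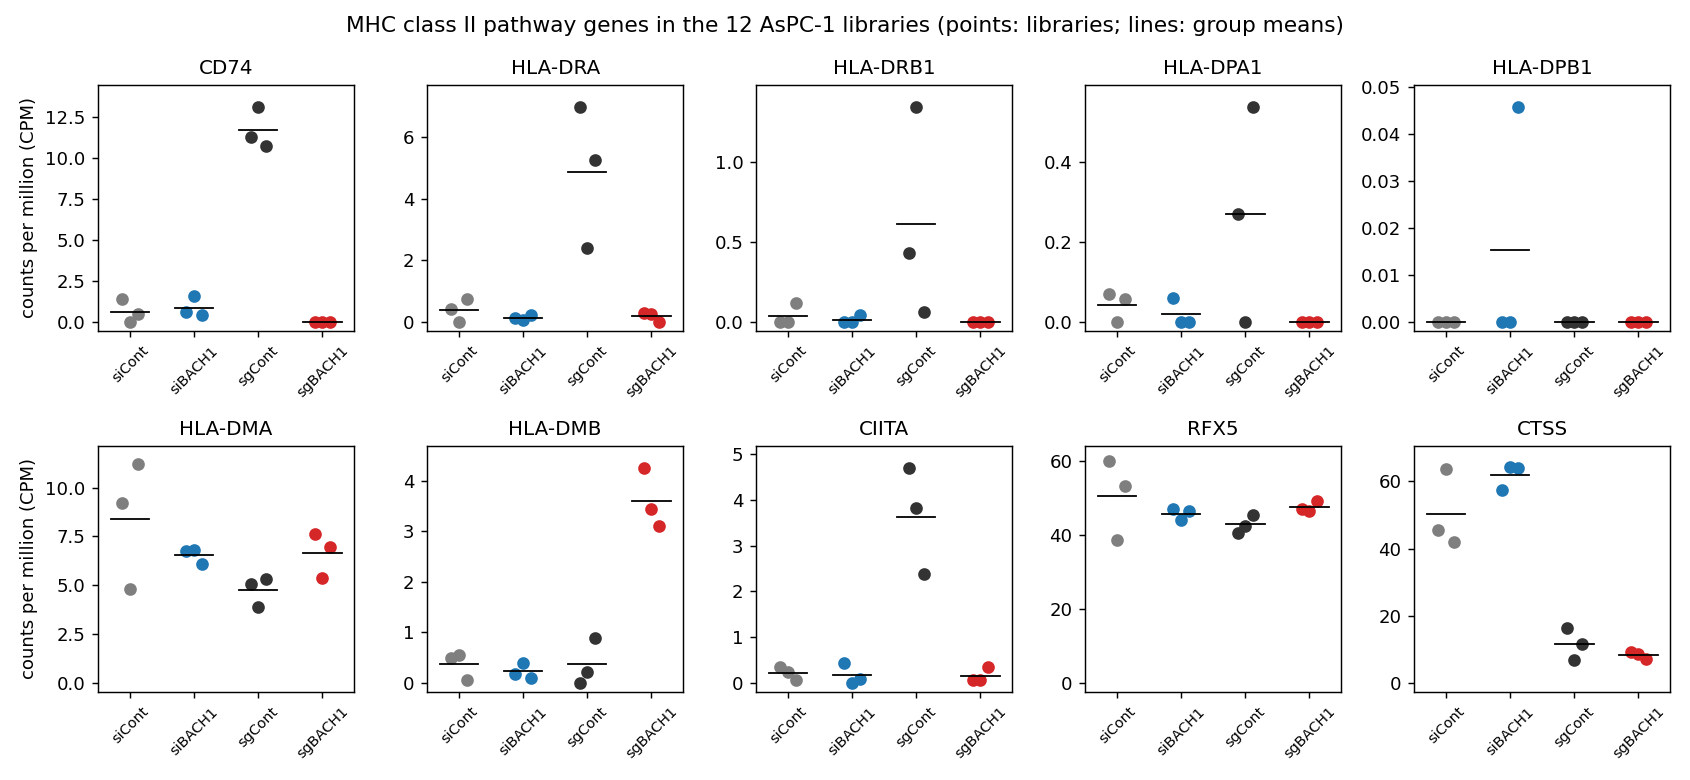
Each panel plots 1 gene, with CPM on a linear axis of its own and the 4 groups along the x axis; points are libraries and black lines group means (n = 3). CD74, HLA-DRA and CIITA are high only in sgCont in these 12 libraries, HLA-DMB is high in sgBACH1, and CTSS is lower in both knockout groups than in both siRNA groups.

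HLA-DRA, the nearly invariant alpha chain of HLA-DR, was highest in sgCont as well. It was at 6.97, 2.40 and 5.24 CPM in sgCont and at 0.305, 0.251 and 0 in sgBACH1. These groups did not overlap, although the sgCont libraries spread widely among themselves. The siRNA libraries were at 0.420, 0 and 0.759 CPM in siCont and at 0.121, 0.0499 and 0.229 in siBACH1, and these overlapped. The log2 fold change in the knockout was -4.75 ± 0.70 and ran from -5.34 to -4.10 with single libraries left out. HLA-DRA was too low for the test in the siRNA experiment, where the pooled counts were 8 in siBACH1 and 19 in siCont. Their ratio was 0.318 with a counting interval of 0.12 to 0.761, on 6, 0 and 13 counts in the siCont libraries. Pooled counts of sgBACH1 against siCont gave a ratio of 0.395, with a counting interval of 0.157 to 0.916. The gap between the controls was 3.55 ± 0.79, and it ran from 3.02 to 4.44 with a library left out. The 3 sgBACH1 libraries lay within the range of the 6 siRNA libraries, so sgCont was the group that stood apart.

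The other 3 chains stayed near the limit of detection and passed the filter on low counts in no comparison. HLA-DRB1, a polymorphic beta chain, had 8, 19 and 1 counts in sgCont, 0 in each sgBACH1 library, and 3 in all in the siRNA experiment. The pooled knockout level was at least 10.0-fold lower than sgCont, but 19 of the 28 counts came from the second sgCont library and the bound was 4.5-fold without it. HLA-DPA1 had 5, 0 and 9 counts in sgCont and none in sgBACH1, at least 5.0-fold lower, or 2.7-fold without the third sgCont library. HLA-DPB1, its partner, had 1 count over all 12 libraries. Reads of HLA-DRB1 may have been lost to or gained from near-identical DRB copies, and HLA-DPA1 overlaps exons of HLA-DPB1 on the opposite strand, so these counts are uncertain.

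The second sgCont library, which held most of the HLA-DRB1 counts, also had 29 counts of PTPRC, the pan-leukocyte antigen CD45, against 4 and 1 in the other sgCont libraries. It had 14 counts each of COL3A1 and DCN, which are fibroblast genes. The blood list without LYZ and CD14 reached 2.33 CPM there and was between 0.216 and 0.357 in the others of its group. In the same library CD74 was at 13.1 CPM and HLA-DRA at 2.40, the highest and the lowest of the 3. Without it the knockout log2 fold change was -5.08 for HLA-DRA and -4.38 for CIITA, against -4.75 and -4.41 with it.

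CIITA, the coactivator on which class II transcription depends, was also high in sgCont alone. It was at 4.70, 3.82 and 2.38 CPM in sgCont, on 87, 54 and 40 counts, and at 0.0609, 0.0627 and 0.339 in sgBACH1. In the siRNA experiment it was at 0.350, 0.235 and 0.0584 CPM in siCont and at 0.423, 0 and 0.0915 in siBACH1. The sgCont libraries lay above the other 9, which overlapped one another. The knockout log2 fold change was -4.41 ± 0.71 and ran from -5.71, without the third sgBACH1 library, to -4.05. The gap between the controls was 4.08 ± 0.85. Pooled counts were 9 in sgBACH1 and 9 in siCont, a ratio of 0.833 with a counting interval of 0.293 to 2.37. CIITA shares exon sequence with DEXI and with AC133065.1 on the opposite strand and with AC133065.3 on its own, and no source used here says whether counting used strand.

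RFX5, the DNA-binding subunit of the RFX complex, was detected at 495 counts or more in every library. It was at 40.6, 42.6 and 45.4 CPM in sgCont and at 47.1, 46.4 and 49.3 in sgBACH1, with no overlap but a log2 fold change of 0.15 ± 0.11. It was at 60.1, 38.8 and 53.2 CPM in siCont and at 47.0, 44.1 and 46.4 in siBACH1, a change of -0.15 ± 0.14. The low siCont value came from the library that stood apart, and without it the change was -0.31. The gap between the controls was -0.24 ± 0.13.

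HLA-DMB, a chain of the peptide editor, was higher in the knockout. It was at 0, 0.212 and 0.894 CPM in sgCont and at 4.26, 3.45 and 3.10 in sgBACH1, 3.27 ± 0.74 log2 higher. The lowest sgBACH1 library was thus above the highest sgCont library. In siCont it was at 0.489, 0.549 and 0.0584 CPM and in siBACH1 at 0.181, 0.399 and 0.0915, so that sgBACH1 was the group that stood apart. Of the 18 sgCont counts, 15 came from the third library, and without it the fold change was 5.15. The pooled ratio of sgBACH1 to siCont was 10.5, with a counting interval of 6.21 to 19.1. The printed windows of HLA-DMB and HLA-DRB1 both hold X and Y box letters, but in unlike layouts. The Y box match begins 46 bases before the start in HLA-DRB1, on the strand of the gene. In HLA-DMB it begins 22 bases before the start, on the opposite strand and farther from the X box letters. HLA-DRB1 had no counts in the group where HLA-DMB was highest.

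HLA-DMA, which pairs with HLA-DMB, was detected in every library. It was at 5.08, 3.89 and 5.30 CPM in sgCont and at 7.62, 5.39 and 6.94 in sgBACH1, which did not overlap by a narrow margin, with a log2 fold change of 0.48 ± 0.30. In siCont it was at 9.23, 4.79 and 11.2 CPM, and in siBACH1 at 6.77, 6.78 and 6.08, inside the range of siCont. The siRNA fold change was -0.38 ± 0.28 and was -0.65 without the second siCont library. The gap between the controls was -0.83 ± 0.28, opposite in sign to that of CD74, HLA-DRA and CIITA. Both HLA-DM genes overlap AL645941.2 on the same strand, and HLA-DMA overlaps BRD2 on the opposite strand, so their counts are uncertain.

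CTSS, the cathepsin that trims the invariant chain, differed between the experiments more than within either. It was at 45.4, 63.6 and 41.8 CPM in siCont and at 57.5, 64.4 and 64.1 in siBACH1, a change of 0.30 ± 0.15 in groups that overlapped. Without the second siCont library, the highest of its group, the change was 0.50. In sgCont it was at 16.4, 6.78 and 11.6 CPM and in sgBACH1 at 9.08, 8.65 and 7.08, inside the sgCont range, with a change of -0.49 ± 0.27. That value went from -0.76, without the second sgCont library, to -0.16, without the first. The gap between the controls was -2.10 ± 0.23, and all 6 knockout-experiment libraries lay below all 6 siRNA libraries. In sgBACH1, where the substrate CD74 had no counts, CTSS still had 433 counts over the group.

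**Figure D2:**
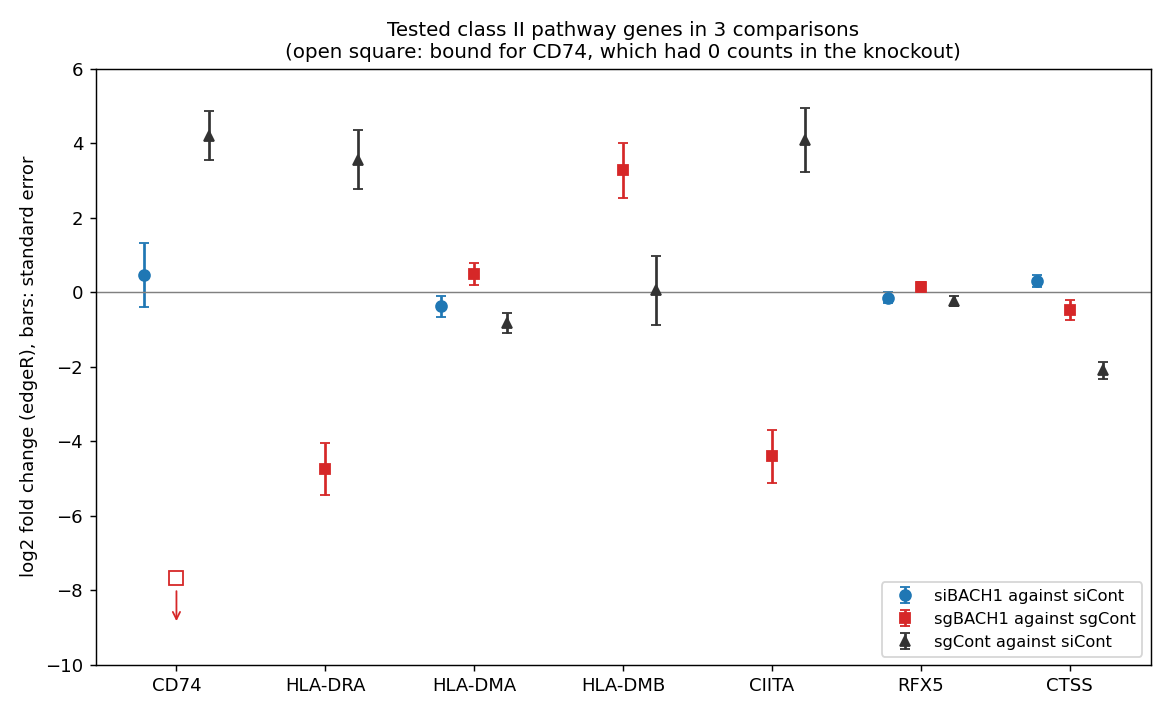
Log2 fold change (y axis) with its standard error for the 7 genes that passed the filter on low counts in at least 1 comparison, in the siRNA experiment (circles), the knockout (squares) and between the controls (triangles). The open square with an arrow is the bound for CD74, which had 0 counts in sgBACH1; CD74, HLA-DRA and CIITA are high in sgCont against both of its comparison groups, while HLA-DMB is higher only in the knockout.

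Counts of these genes at an adjusted p below 0.05 describe the choice and support nothing, since the same comparisons selected them. In the knockout 7 passed the filter, of which HLA-DMB was higher and CD74, HLA-DRA and CIITA were lower. Of all 14469 genes tested there, 11.3% were higher and 12.3% lower. In the siRNA experiment 4 passed the filter and 0 were called by edgeR or by DESeq2, also 0 at an unadjusted p below 0.05 in edgeR, where 10.9% of 14591 genes were higher and 13% lower. Without the second siCont library CTSS was called higher and HLA-DMA and RFX5 lower. Between the controls CD74, HLA-DRA and CIITA were higher and HLA-DMA and CTSS lower in sgCont, against 18.1% higher and 19.8% lower of 15644 genes. The knockout and siRNA responses differed by -4.05 ± 1.35 log2 for CIITA and by 3.91 ± 1.29 for HLA-DMB. With 1 of the 12 libraries left out, the CIITA difference ran from -5.36 to -2.43, the latter without the first siBACH1 library, and its call was lost 6 times and also with the replicate block. That of HLA-DMB ran from 3.30 to 5.79, and its call was lost 8 times. HLA-DRA differed by -3.19 ± 1.39, CTSS by -0.81 ± 0.32, HLA-DMA by 0.85 ± 0.39 and RFX5 by 0.30 ± 0.18. In that fit 1 member, HLA-DMB, was called higher and 2, CD74 and CIITA, lower, against 13% and 10.6% of all genes. The fitted difference of CD74 was -11.11 ± 1.51, a value that rests on its 0 counts in sgBACH1. HLA-DRA was not called in that fit. The median log2 fold change of the tested members was -0.49 in the knockout and 0.07 in the siRNA experiment, beside medians of 0.006 and 0.005 over all genes tested.

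The remaining class II chains were also scarce, and none of HLA-DRB5, HLA-DQA1, HLA-DQB1, HLA-DQA2, HLA-DQB2, HLA-DOA and HLA-DOB passed the filter in any comparison. HLA-DQB1 had 10, 0 and 20 counts in sgCont and 0, 2 and 2 in sgBACH1, and these groups overlapped. HLA-DQA1 had 5, 1 and 9 counts in sgCont and 12, 7 and 4 in sgBACH1, so the DQ chains did not follow HLA-DRA together. In bulk libraries fewer cells with a transcript and less transcript in each cell cannot be told apart.

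Factors that assemble on class II promoters were tested as a list. Over all genes tested, 11.3% were higher and 12.3% lower in the knockout, and 10.9% and 13% with siRNA. Between the controls the shares were 18.1% higher and 19.8% lower in sgCont. The same shares apply to the lists and neighbours that follow. Of 12 tested in the knockout, 2 fell and 0 rose (1 at an unadjusted p below 0.05 in edgeR): CREBBP, a histone acetyltransferase that CIITA recruits (-0.59 ± 0.08, edgeR adjusted p = 1.06e-05), and ATF1, a CREB relative (-0.61 ± 0.15, adjusted p = 0.00457). The median was -0.13. CREBBP lies near the start of chromosome 16, in a stretch where many genes were lower in the knockout, as described below. RFXANK was at -0.21 ± 0.12, RFXAP at 0.26 ± 0.55 and NFYA at -0.20 ± 0.10, none of which passed. In the siRNA experiment 1 rose and 3 fell of 12, with a median of -0.14, and between the controls 3 were higher and 1 lower in sgCont, with a median of 0.10.

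Genes that carry the interferon gamma signal to CIITA changed in both directions in the knockout, where 4 rose and 2 fell of 11 tested, with a median of 0.27. The largest rise was that of PRDM1, which encodes BLIMP1, a repressor known to silence CIITA. It was at 0.486, 0.636 and 0.477 CPM in sgCont and at 5.06, 5.83 and 4.66 in sgBACH1, a change of 3.27 ± 0.48 (edgeR adjusted p = 1.22e-05). In the siRNA experiment PRDM1 was at 2.45, 2.35 and 2.51 CPM in siCont and at 2.12, 1.35 and 2.2 in siBACH1. SOCS3, an inhibitor of cytokine receptor signalling, rose by 1.54 ± 0.38 (adjusted p = 0.00378). Mean SOCS3 was at 5.69 CPM in siCont, 2.24 in sgCont and 6.47 in sgBACH1. IFNGR1, the ligand-binding chain of the receptor, fell by 0.74 on the log2 scale, from 120, 129 and 123 CPM to 71.2, 76.2 and 74.6 (adjusted p = 4.52e-07). With siRNA 2 of 11 fell and 0 rose (1 at an unadjusted p below 0.05 in edgeR), with a median of 0.01. Of 9 tested genes that interferon gamma is known to induce, such as guanylate-binding proteins and immunoproteasome subunits, 1 rose and 1 fell in the knockout, with a median of -0.30. With siRNA 1 rose and 0 fell (1 at an unadjusted p below 0.05). Between the controls, a comparison that shares the sgCont libraries, 0 of these 9 were higher (0 also unadjusted) and 3 lower in sgCont, with a median of -0.67. Of the 11 genes that carry the signal, 1 was higher and 5 lower there, with a median of -0.36.

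Genes on a list for endosomal antigen processing rose more often than they fell. The list holds proteases, but also the inhibitors CST3 and CSTB and the ubiquitin ligases MARCHF1 and MARCHF8. In the knockout 7 of 13 rose and 0 fell (0 also at an unadjusted p below 0.05 in edgeR), with a median of 0.40 against 0.006 over all genes. Of all genes tested there, 11.3% were higher and 12.3% lower. The rises include both inhibitors and that of CTSB (0.17), which lost its call in 5 of 6 fits with a library left out. Between the controls, a comparison that shares the sgCont libraries, 0 of 13 were higher and 8 lower in sgCont (1 higher and 8 lower at an unadjusted p below 0.05), with a median of -0.31. LGMN, the asparaginyl endopeptidase, went from 99.1, 88.0 and 101 CPM to 240, 217 and 226, a change of 1.25 ± 0.08 (edgeR adjusted p = 2.9e-11). Its siCont level was 195, 196 and 194 CPM, near that of sgBACH1, and siBACH1 was at 236, 253 and 242. CTSL, a cathepsin known to cleave the invariant chain in mouse thymic epithelium, rose by 0.87 ± 0.13 (adjusted p = 2.51e-05). CSTB, a cytosolic inhibitor of such cathepsins, rose by 0.48 ± 0.08 (adjusted p = 0.000116). CTSK rose by 3.46 ± 0.89 (adjusted p = 0.00529), from 4 to 51 counts over the groups. With siRNA 5 of 13 rose and 1 fell, with a median of 0.10. The rises include MARCHF8 (0.57) and CTSV (0.90), and the call of CTSV was lost in 5 of 6 fits with a library left out. CTSD, an aspartic protease, rose by 1.20 ± 0.08 (adjusted p = 1.09e-05), and SPPL2A, the intramembrane protease that clears the last CD74 fragment, fell by 1.00 on the log2 scale (adjusted p = 0.0035).

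Other arms of presentation were compared as well. CD74 on the cell surface is a receptor for MIF with CD44 as its partner. In the knockout ACKR3, an atypical receptor for MIF and CXCL12, rose by 2.31 ± 0.34 (edgeR adjusted p = 1.56e-05), while MIF itself was at -0.21 and CD44 at -0.10, neither of which passed. Mean ACKR3 was at 16.0 CPM in siCont, 1.69 in sgCont and 8.32 in sgBACH1, with a gap between the controls of -3.26 ± 0.31. With siRNA 1 of 4 genes of this list fell, with a median of -0.35. Of 3 costimulatory molecules tested, CD58, the ligand of CD2, rose by 0.83 (adjusted p = 0.00259) and ICOSLG fell by 0.52 on the log2 scale (adjusted p = 0.00547), and with siRNA 0 of 3 were called (1 lower at an unadjusted p below 0.05). Mean CD58 was at 24.1 CPM in siCont, 9.82 in sgCont and 17.4 in sgBACH1. Mean ICOSLG was at 23.8, 37.7 and 26.2 CPM in the same groups. Class I presentation, tested in all 12 of its genes, showed 2 rises and 0 falls in the knockout (1 lower at an unadjusted p below 0.05 in edgeR), with a median of 0.07. The rises were those of ERAP2 (1.85) and TAP1 (0.39), and each lost its call in 5 of 6 fits with a library left out, at an adjusted p of up to 0.296 for ERAP2 and 0.256 for TAP1. With siRNA it showed 0 rises and 0 falls (3 higher and 0 lower unadjusted), with a median of 0.04.

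**Figure D3:**
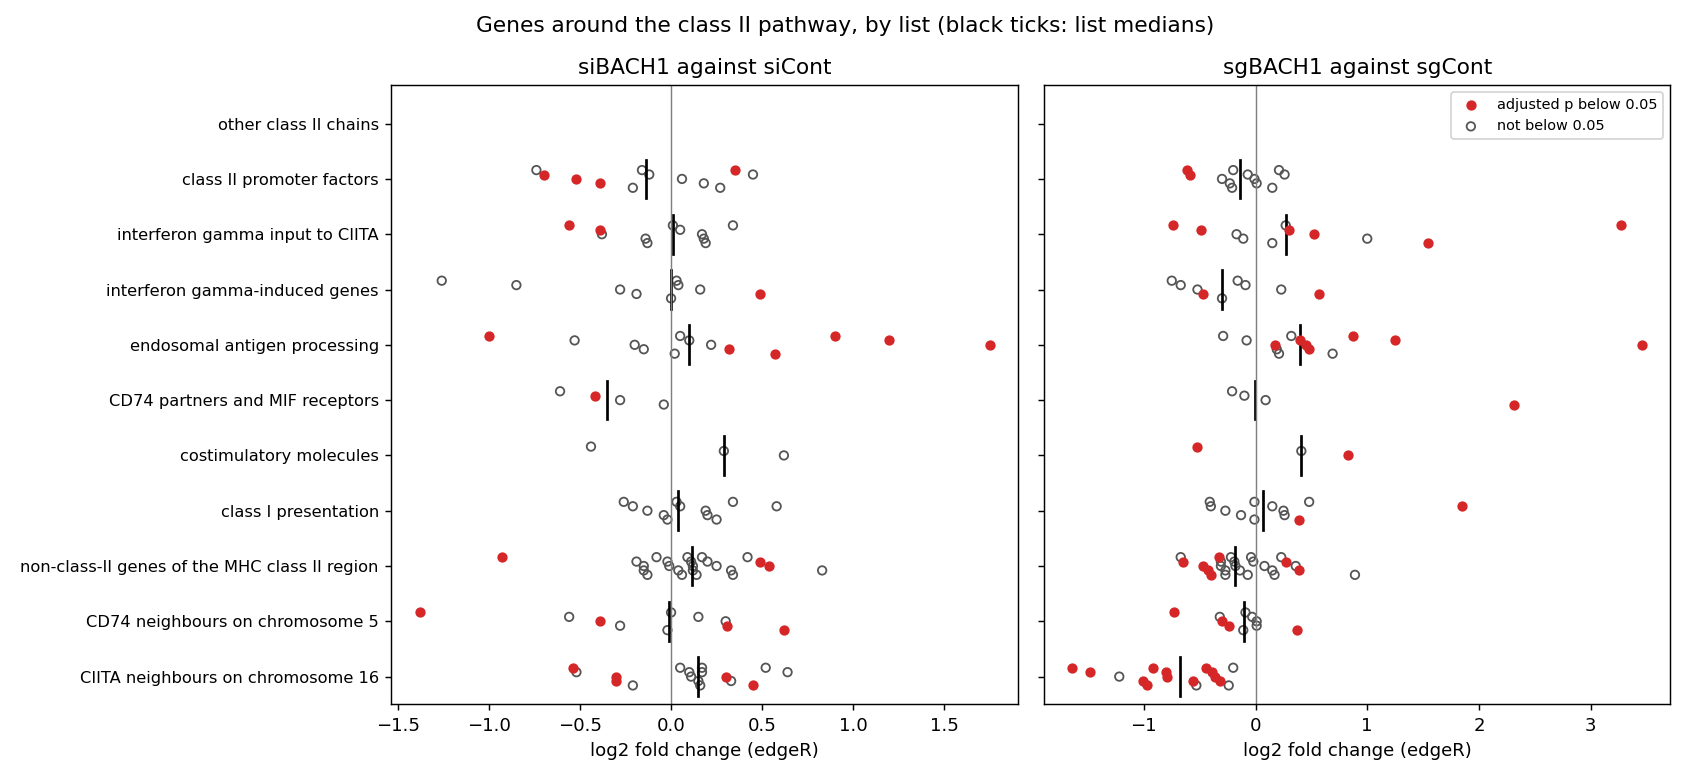
Log2 fold changes (x axis) of the genes of each list (rows; the 10 class II genes are left out) in the siRNA experiment (left) and the knockout (right), filled where the edgeR adjusted p was below 0.05, with list medians as black ticks. No gene of the top list could be tested, 7 of 13 endosomal genes rose in the knockout, and 12 of 16 CIITA neighbours fell there.

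Where the genes lie was compared with how their neighbours moved. Places are from GENCODE 29 (GRCh38), used for order only, as the counts were made on hg19. CIITA lies at chr16:10866222-10943021, CD74 at chr5:150401637-150412929, HLA-DRA at chr6:32439842-32445046, RFX5 at chr1:151340640-151347357 and CTSS at chr1:150730196-150765957. HLA-DMB lies at chr6:32934629-32941070 and HLA-DMA at chr6:32948613-32969094. HLA-DRB1 lies at chr6:32578769-32589848, HLA-DPA1 at chr6:33064569-33080775 and HLA-DPB1 at chr6:33075926-33087201.

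Genes around CIITA were lower in the knockout as a block. Of 16 tested on a list of CIITA neighbours, 12 fell and 0 rose (0 also at an unadjusted p below 0.05 in edgeR), with a median of -0.68 against 0.006 over all genes. Of all genes tested in the knockout, 12.3% fell and 11.3% rose. With siRNA 2 rose and 3 fell of 17, with a median of 0.15. SNN went from 53.0, 58.1 and 51.2 CPM in sgCont to 17.5, 16.0 and 18.3 in sgBACH1, a change of -1.64 ± 0.13 (edgeR adjusted p = 9.32e-10). LITAF changed by -1.48 ± 0.11 (adjusted p = 4.45e-10), NUBP1 by -1.01 ± 0.15 (adjusted p = 1.56e-05) and DEXI by -0.97 ± 0.20 (adjusted p = 0.000573). Among the 40 tested genes nearest to CIITA in gene order, 20 on each side, 28 fell and 1 rose, with a median of -0.54. With siRNA 5 rose and 3 fell of 40, with a median of 0.12. The change of CIITA itself, -4.41, was larger than these medians, but 1 called neighbour, TXNDC11-AS1, was at -4.87. Between the controls 12 of 40 neighbours were higher and 6 lower in sgCont, with a median of 0.16. DEXI shares exon sequence with CIITA on the opposite strand.

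The lower levels reached beyond those neighbours. Over chromosome 16 in bins of 10 Mb, chosen after the neighbours had been seen, the knockout medians were -0.45, -0.37 and -0.40 in the first 3 bins, where 90 of 167, 29 of 58 and 38 of 79 tested genes fell. CIITA lies in the second of these bins and CREBBP in the first. The median was 0.38 between 50 and 60 Mb and -0.45 between 80 and 90 Mb. Chromosome 16 as a whole had a median of -0.28 in the knockout, the lowest of the 22 autosomes, of which the next was chromosome 12 at -0.17. With siRNA the first 3 bins were at 0.19, 0.00 and 0.11. Between the controls, a comparison that shares the sgCont libraries, they were at 0.19, 0.11 and 0.21, higher in sgCont. There the bin from 50 to 60 Mb was at -0.20 and that from 80 to 90 Mb at 0.57. Chromosome 16 as a whole was at 0.22 between the controls, the highest of the 22 autosomes. The part of this regional shift in the CIITA and CREBBP levels was not tested.

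The other members lay among neighbours that did not shift in this way. Around CD74 8 of 40 fell and 3 rose in the knockout, with a median of -0.07, against 12.3% lower and 11.3% higher of all genes. On a list of CD74 neighbours 1 rose and 3 fell of 10, with a median of -0.10. Around HLA-DRA 5 of 40 fell and 3 rose, with a median of -0.12, and the medians were -0.13 around the HLA-DM and HLA-DP genes, 0.08 around RFX5 and 0.02 around CTSS. Of 25 tested genes of the class II region that encode no class II chain, 2 rose and 5 fell, with a median of -0.18. HLA-DMB was therefore higher, and HLA-DRA lower, in a stretch of chromosome 6 with a median near 0. Single called neighbours still moved far in the knockout. NMUR2 was at -4.48 and DPYSL3 at -2.67 around CD74, and SLC44A4 was at 3.27 around HLA-DRA.

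**Figure D4:**
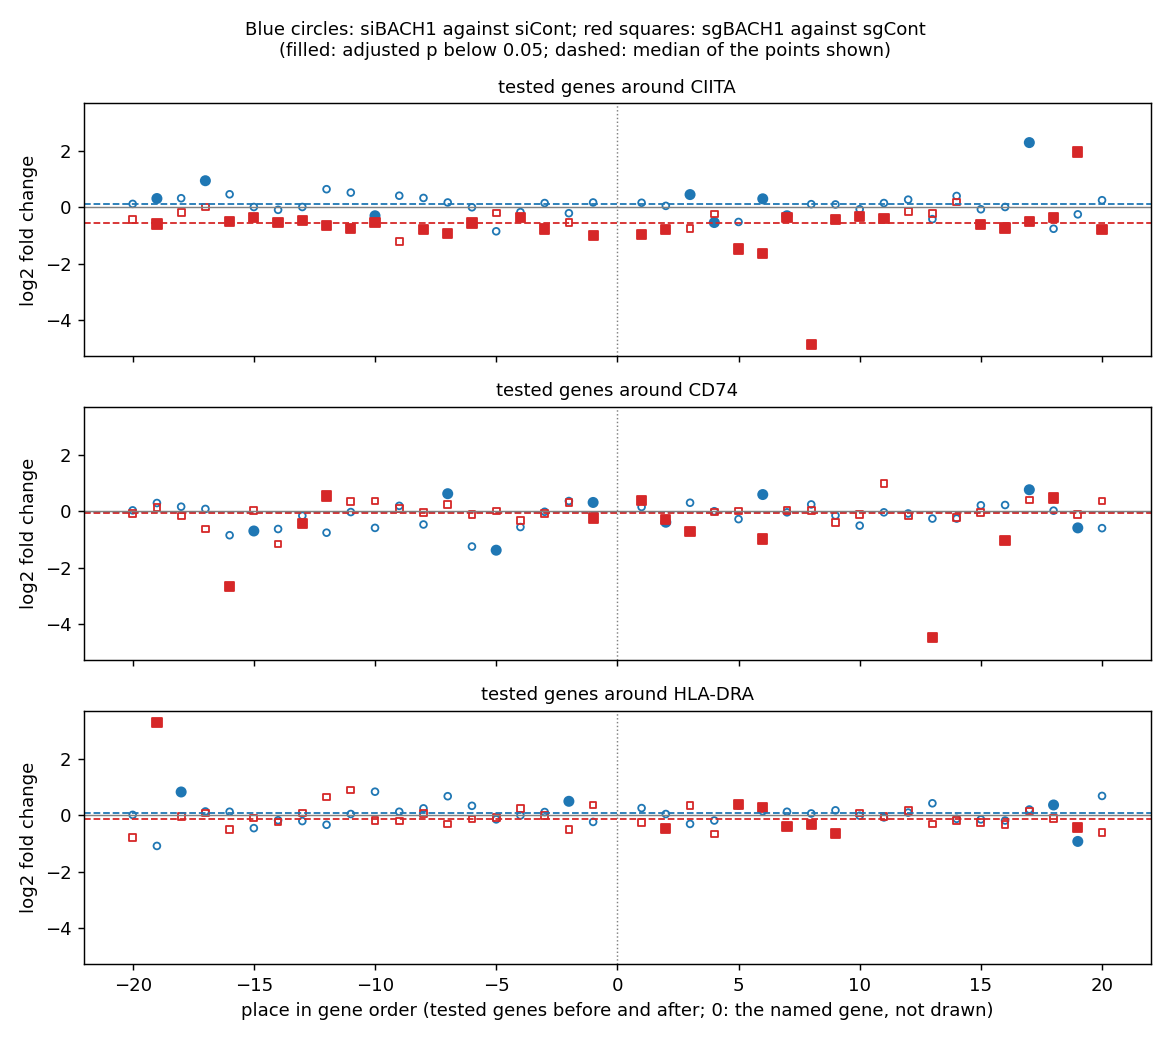
Log2 fold change (y axis) of the 20 tested genes on each side of CIITA, CD74 and HLA-DRA in gene order (x axis, number of genes from the named gene), with siRNA as blue circles and knockout as red squares, filled where the edgeR adjusted p was below 0.05. The dashed lines are medians; the knockout median around CIITA is -0.54, against -0.07 around CD74 and -0.12 around HLA-DRA.

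Expression patterns most like those of CD74 and HLA-DRA were looked up among 13024 genes outside the set, by Pearson correlation of log2 CPM over the 12 libraries. These 12 points share 4 groups, so the values are given as a description. The genes nearest to CD74 were UTRN and KCNAB2, both at 0.97, HSPB1 and ADAMTS15 at 0.96, and TUFM at 0.95. TUFM lies on chromosome 16, in the third of the bins above. Those nearest to HLA-DRA were CDK18 at 0.96, PCDH7 at 0.95, POLR2H at 0.94, and UPK3B and SOSTDC1 at 0.93. Within the set, CD74 and HLA-DRA correlated at 0.82, and each of them with CIITA at 0.78. HLA-DMB correlated with CD74 at -0.59.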

How the data were processed

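RNA depleted of ribosomal RNA was sequenced on an Ion Proton, per the labels' protocols. Each experiment came as 1 table of deposited counts, whole numbers of reads for each gene. HTSeq 0.9.1, SAMtools and the hg19 genome were used by the authors, per the submitters' processing notes. Neither aligner, counting mode nor strand setting is stated (not given in the sources used here). Unassigned reads are not among the values, so depth is the sum over genes. Groups follow the sample titles.

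The test was the quasi-likelihood F test of edgeR 4.0.16 in R 4.3.3, two-sided, after TMM scaling. Genes were kept by filterByExpr at its minimum count of 10. P-values were adjusted by Benjamini and Hochberg's method across every gene kept, and a call is an adjusted p below 0.05. The siRNA and knockout libraries were fitted apart with no block for replicates. The difference of the responses and the gap between the controls came from 1 fit of 12 libraries. Standard errors are the log2 fold change over the square root of F. The steps were tested on simulated data. Symbols were found for 51996 identifiers. Counting intervals are exact binomial (Clopper-Pearson).

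The members and lists were chosen with earlier results of these data known. Of each list, at most the 4 called genes with the largest change per comparison are named, and any tested gene of a list of 8 or fewer; RFXANK, RFXAP, NFYA and the marker genes were named after their values were seen. Some genes that the rule selects are not reported here. Likeness used a prior count of 2 and genes whose mean log2 CPM was 0 or more. Alternatives were other scalings, DESeq2 1.42.0, no filter, a replicate block and leaving out each library.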

Additional observations from a re-analysis of the deposited data

Results flagged for a closer look

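Named genes around the class II pathway are listed where the knockout and siRNA responses differed in the fit of all 12 libraries (edgeR, adjusted p from 3.02e-06 to 0.0476 over all genes). The class II genes themselves are left out, because the same contrast chose them. Differences are knockout minus siRNA on the log2 scale.

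CREBBP rose with siRNA (0.35) and fell in the knockout (-0.59), a difference of -0.94 ± 0.12. It lies in the stretch of chromosome 16 described above, and the part of that shift was not tested. IFNGR2 fell with siRNA (-0.39) and rose in the knockout (0.30), a difference of 0.68 ± 0.15. Single responses of these 2 genes were less firm than their difference: with 1 of 6 libraries left out, the siRNA rise of CREBBP lost its call 4 times (adjusted p up to 0.0854), the siRNA fall of IFNGR2 4 times (up to 0.156) and its knockout rise 2 times (up to 0.105). The siRNA fall of IFNGR2 was also lost with upper quartile scaling and with the replicate block. PRDM1 differed by 3.64 ± 0.49 (-0.38 with siRNA, 3.27 in the knockout), and ACKR3 by 2.92 ± 0.41 (-0.61 and 2.31). SOCS3 differed by 1.35 ± 0.41 (0.19 and 1.54), and IFNGR1 by -0.62 ± 0.14 (-0.13 and -0.74). Among the endosomal genes, SPPL2A differed by 1.31 ± 0.24 (-1.0 and 0.32), CTSL by 1.06 ± 0.19 (-0.20 and 0.87), LGMN by 0.92 ± 0.11 (0.32 and 1.25) and CTSD by -1.0 ± 0.11 (1.20 and 0.21). CD58 differed by 1.26 ± 0.26 (-0.44 and 0.83) and ICOSLG by -0.81 ± 0.26 (0.29 and -0.52). NFYB differed by 0.85 ± 0.29 (-0.70 and 0.15) and PSMB8 by -0.51 ± 0.18 (0.04 and -0.47). The differences use both control groups, which were themselves apart for some of these genes. The gap between the controls was -3.26 for ACKR3, -2.19 for PRDM1, -1.35 for SOCS3 and -1.29 for CD58. It was -0.06 for CTSD, -0.09 for CTSL and 0.12 for IFNGR1.

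With each of the 12 libraries left out in turn, the call of the difference was lost 4 times for SOCS3, 7 times for ICOSLG, 8 times for NFYB and 9 times for PSMB8, and never for the other 10. PSMB8 also lost it without the filter on low counts and with the replicate block.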

How the results depend on the processing

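No result changed direction past its threshold. Under other scalings, the DESeq2 test, no filter and a replicate block, the knockout count of 3407 genes stayed between 3356 and 3530, and the gap count of 5918 between 5753 and 6162. With single libraries left out, the siRNA count of 3481 ranged from 2002 to 5121, the highest without the second siCont library. The knockout count ranged from 2500 to 3586, the count for the difference (3687) from 2960 to 3990 and that of the gap from 5255 to 5848. Members called in the siRNA experiment ranged from 0 to 3, and members called in the difference (3) from 1 to 5, with 5 also without the filter on low counts. Each such fit had fewer libraries, and the cause of these ranges was not tested. No label says that replicate numbers pair the libraries. In their deviations from group means, same-numbered libraries correlated between -0.01 and 0.04 and other-numbered libraries between -0.05 and 0.03. With the replicate block 3196 genes were called with siRNA, 3530 in the knockout, 3513 for the difference and 5795 for the gap, and 2 members were called in the difference. Upper quartile scaling moved the siRNA calls from 1586 higher and 1895 lower to 1820 and 1757. Few counts limit HLA-DRB1, HLA-DPA1 and HLA-DPB1 in all groups and HLA-DRA, CIITA and HLA-DMB in the siRNA experiment.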
